A study of Mus musculus with 11 samples.

Results

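The 48 proteasome genes described here are the rows of the count table whose gene name is Psm followed by a letter from a to g and a number, out of 43346 genes in the table. They cover the subunits of the core particle (Psma and Psmb genes), the regulatory particle that caps it (Psmc and Psmd genes), the alternative activators (Psme genes), an inhibitor (Psmf1) and the chaperones that assemble the core (Psmg genes). Colon tissue was taken from 5 germ-free mice, which carry no microbes, and from 6 humanized mice, which were germ-free mice given 300 µL of stool suspension from a single healthy human donor by gavage at 4 to 5 weeks of age. All were male Swiss Webster mice killed at 8 to 10 weeks of age, after 4 to 5 weeks of colonization in the humanized group. Mice were singly housed in isolators on autoclaved feed, and polyadenylated RNA was sequenced. Since all humanized mice received the stool of the same donor, the comparison is between that microbiota and no microbiota.

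The proteasome is the main protease of the cytosol and nucleus and degrades proteins tagged with ubiquitin. Its core is a barrel of stacked alpha and beta rings, in which 3 beta subunits (the products of Psmb5, Psmb6 and Psmb7) cut the protein chain. Immune signals, above all interferon gamma, induce replacement subunits: the product of Psmb8 takes the place of that of Psmb5, Psmb9 that of Psmb6 and Psmb10 that of Psmb7. The resulting immunoproteasome yields peptides that suit presentation on MHC class I. It is abundant in lymphocytes and myeloid cells, and mucosal epithelium also makes it.

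Short stretches upstream of 4 catalytic subunit genes are shown because the motifs in them belong to pathways known to act on proteasome genes. They come from RefSeq (build GRCm38.p6), are written 5′ to 3′ on the strand of the gene, and carry the matched letters in capitals. Each was cut from the 250 bases before the RefSeq start, and the windows of Psmb5, Psmb8, Psmb9 and Psmb10 overlap first exons of longer transcripts in GENCODE vM21. The gamma-activated site (TTCNNNGAA, a motif of interferon gamma signalling) was found before Psmb8 at chr17:34198087-34198116 on the plus strand. The core of the antioxidant response element (TGACNNNGC, bound by NRF1 and NRF2) was found before Psmb5 at chr14:54618024-54618053 on the minus strand and before Psmb6 at chr11:70525327-70525356 on the plus strand. A CCAAT box, here on the opposite strand as ATTGG, was found before Psmb9 at chr17:34187331-34187360 on the minus strand.
Psmb8: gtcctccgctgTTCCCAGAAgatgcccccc
Psmb5: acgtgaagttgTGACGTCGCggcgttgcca
Psmb6: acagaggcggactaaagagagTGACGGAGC
Psmb9: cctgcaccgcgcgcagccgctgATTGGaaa
The window of Psmb10 held none of the motifs searched. Windows were given for 40 of the 48 genes, and both strands were searched. The gamma-activated site was in 2 of the 40 (Psmb8 and Psmg1), against 8.13% of the windows of 27025 genes. The antioxidant response element core was in 5 of the 40 (Psmb5, Psmb6, Psmc6, Psmd12 and Psmd9), against 11.5% of all windows. The interferon regulatory factor element (GAAA repeated after any 2 bases) was in 3 of the 40 (Psmb3, Psmd4 and Psmd9), against 3.46%, and in none of Psmb8, Psmb9 and Psmb10. The CCAAT box was in 14 of the 40, against 37.5%. These are matches of letters in short windows and do not show binding. A motif absent from a window can lie outside it, for example before the longer transcripts.

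Each germ-free library held 49097005 to 64148538 counts and each humanized library 39125290 to 54219854, and the 48 genes took 0.304% to 0.329% of the counts in the former and 0.316% to 0.348% in the latter. The trimmed-mean (TMM) scaling factors of the groups did not overlap, at 1.032 to 1.116 in germ-free and 0.876 to 1.028 in humanized mice. Epithelial markers were abundant in every library, at a summed 7702 to 10479 CPM (counts scaled to library size) in germ-free and 8806 to 11998 in humanized mice, as the colon label implies. At a false discovery rate (FDR) below 0.01 in the edgeR exact test, 9.2% of all tested genes were upregulated in humanized mice and 10.1% downregulated. Of the 11 epithelial markers, 2 were upregulated and 0 downregulated, and all 11 estimates were above 0 (median log2 fold change 0.21). The 8 smooth muscle markers were all downregulated, with a summed 768 to 2234 CPM in germ-free and 82.0 to 798 CPM in humanized mice. Of the fibroblast markers, 4 of 5 were downregulated (summed 1024 to 1446 CPM in germ-free and 101 to 794 CPM in humanized mice), and of the endothelial markers 0 of 3 were called (median LFC -0.91). Of the B and plasma cell markers, 3 of 7 were upregulated (summed 409 to 450 CPM in germ-free and 477 to 626 CPM in humanized mice). The T and NK cell markers were low in both groups, and 8 of 10 were upregulated, with a summed 12.2 to 14.6 CPM in germ-free and 22.5 to 56.5 CPM in humanized mice. The quasi-likelihood test, which called 7.05% of all genes upregulated and 6.53% downregulated, called 4 of the 8 smooth muscle, 2 of the 5 fibroblast, 2 of the 7 B and plasma cell and 8 of the 10 T and NK cell markers. No marker of these lists was at 0 in any mouse. Their part in the proteasome differences was not tested, and in bulk tissue fewer cells of a type and less RNA per cell cannot be told apart.

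Proteasome genes were modestly upregulated in humanized mouse colon with TMM scaling, and most of these calls were lost with total-count or epithelial-marker scaling. Of the 46 genes with enough counts to test, 25 were upregulated and 0 downregulated at FDR below 0.01 (edgeR exact test), while 9.2% of all 19863 tested genes were upregulated and 10.1% downregulated. The count of upregulated genes was 3 with libraries scaled to total counts, against 3.89% of all genes, and 1 (Psmb8) with libraries scaled to 11 epithelial markers, against 2.84%. The median log2 fold change (LFC, humanized over germ-free, TMM-scaled) of the 46 genes was 0.27, a 1.20-fold difference, against 0.01 over all tested genes. At an unadjusted p below 0.05, 34 genes were higher and 0 lower, against 18.5% and 19% of all genes, and the corresponding quasi-likelihood counts were 35 and 0, against 19.8% and 19.4%. With the quasi-likelihood test at FDR below 0.01, 20 of the 46 genes were upregulated, against 7.05% of all tested genes. Apart from Psmb8 (LFC 0.90), the upregulated genes had LFCs between 0.24 and 0.49. Without germ-free mouse 1 and without germ-free mouse 3 the count was 14, and it was 17 to 26 without any other single mouse. Of the 25 genes, 13 stayed upregulated whichever of the 11 mice was left out (Psma1, Psma2, Psma3, Psma5, Psma6, Psmb1, Psmb2, Psmb7, Psmb8, Psmd4, Psmd7, Psmd13 and Psme2). The estimated LFC was above 0 for 43 genes and below 0 for Psmb6 (-0.27), Psmf1 (-0.02) and Psmd9 (-0.01), none of which passed the test. The values in the groups did not overlap for 24 of the 46 genes, all higher in humanized mice, against 8.67% of all tested genes apart in that direction and 9.73% in the other. Psmc2, Psmd14 and Psme1 were upregulated with overlapping values, whereas Psmc4 and Psmd1 did not overlap but missed the threshold (FDR 0.0209 and 0.0298). Psma8, the testis form of an alpha subunit, and Psmb11, the catalytic subunit of the thymus proteasome, were not tested, with at most 18 and 8 counts in any mouse.

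**Figure D1:**
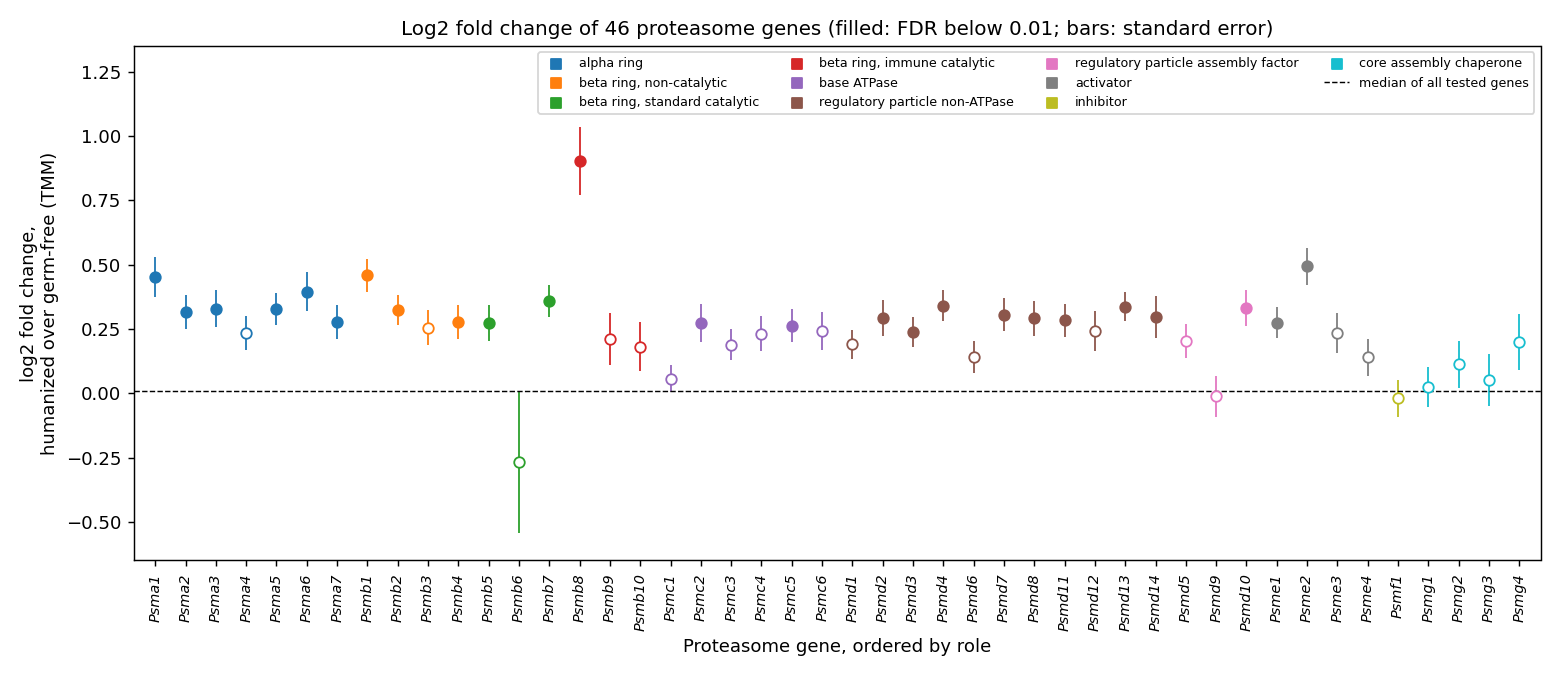
Log2 fold change (humanized over germ-free, vertical axis) of the 46 tested proteasome genes, ordered and coloured by role, with standard errors as bars and filled points for FDR below 0.01. Psmb8 stands highest at 0.90, most other genes lie between 0.05 and 0.49, and Psmb6 lies lowest at -0.27 with the widest bar.

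With TMM scaling the difference was seen in each humanized mouse, whereas the share of raw counts in humanized mouse 5 (0.316%) was below that in germ-free mice 2 and 5 (0.321% and 0.329%). Relative to the median of the germ-free mice, the median log2 difference in TMM-scaled RPKM over the 46 genes was 0.36 in humanized mouse 1, 0.31 in mouse 2, 0.17 in mouse 3, 0.17 in mouse 4, 0.28 in mouse 5 and 0.28 in mouse 6. In germ-free mice it ranged from -0.10 to 0.04. Between 40 and 45 of the 46 genes lay above the germ-free median in each humanized mouse. Germ-free mouse 1 was the lowest of its group for 31 genes, and humanized mice 3 and 4 were the lowest of theirs for 16 genes each. The genes varied little within groups, with a median coefficient of variation of 6.24% in germ-free and 8.66% in humanized mice, against 10.4% and 16.5% over all tested genes. The set of all tested genes includes genes with few counts, which vary more from sampling, and the comparison was not matched for level.

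**Figure D2:**
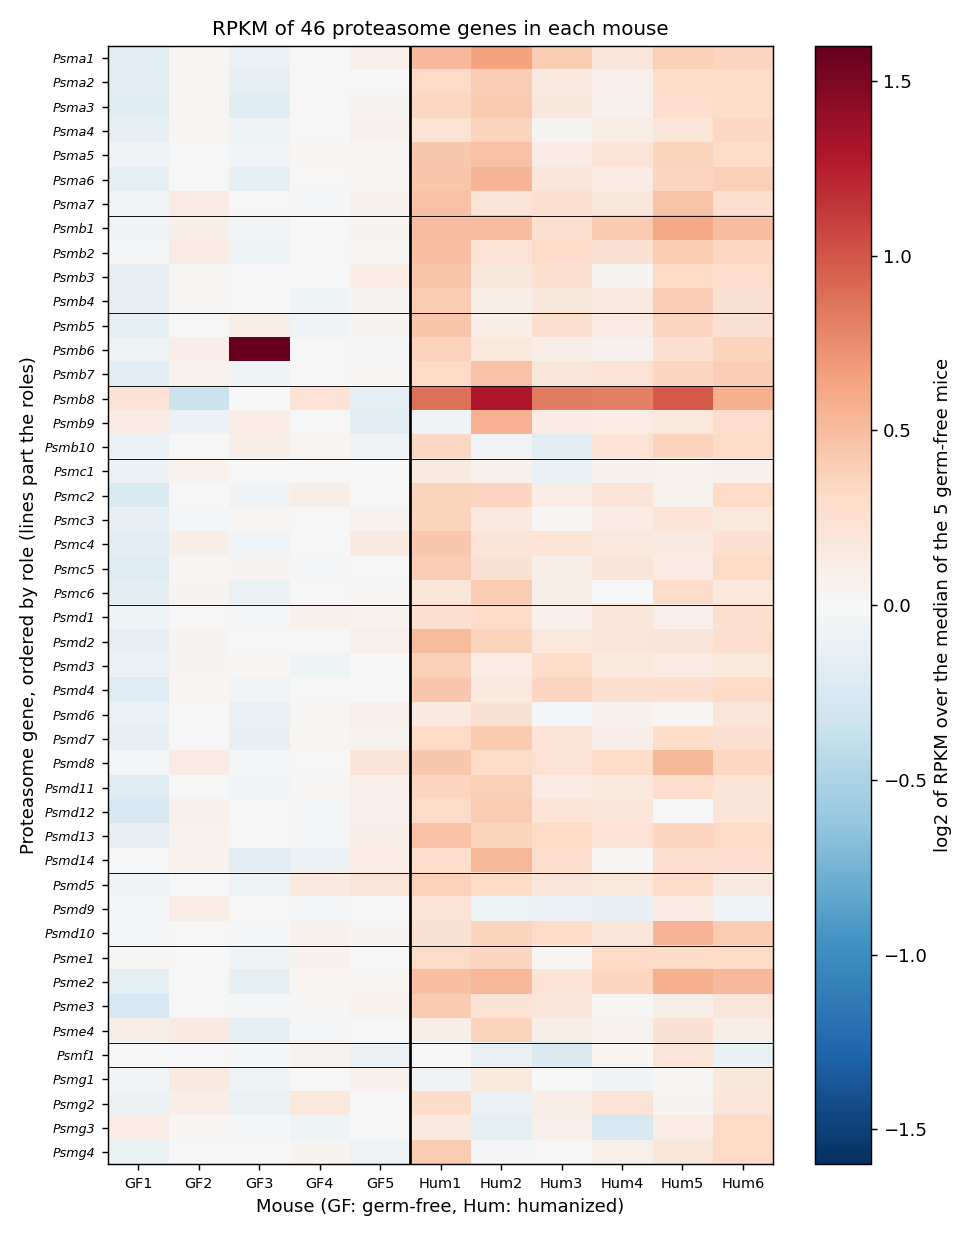
Heat map of the 46 tested proteasome genes (rows, grouped by role) in the 11 mice (columns), coloured by the log2 of RPKM over the median of the 5 germ-free mice. Red fills most of the humanized columns, the Psmb8 row is the darkest across them, and a single dark cell marks Psmb6 in germ-free mouse 3 at 1.59.

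Among the immune catalytic subunits, Psmb8 was upregulated and Psmb9 and Psmb10 did not pass the test. Psmb8 encodes β5i, the immune subunit with chymotrypsin-like activity, and lies in the MHC region at chr17:34197721-34201454 (mm10). In germ-free mice its level was 11.3, 7.60, 9.61, 11.3 and 8.61 RPKM (reads scaled to gene length and library size), and in humanized mice it was 17.6, 23.7, 17.1, 16.9, 19.0 and 14.2 RPKM. Every humanized mouse was above every germ-free mouse. The mean rose from 9.67 ± 1.62 (SD, n = 5) to 18.1 ± 3.14 RPKM (SD, n = 6), with an LFC of 0.90 ± 0.13 (SE) and an FDR of 1.089e-08 (edgeR exact test). Leaving out each mouse in turn gave LFCs of 0.81 to 0.96. Psmb8 shares 498 exonic bases (18.2% of its length) with the antisense gene Gm20496, whose LFC was 0.77 with an FDR of 1.396e-06, and the library type does not mark strand, so reads from the shared bases cannot be told apart. The T and NK cell markers, of a cell class rich in immunoproteasome, moved in the same direction (Cd8a LFC 1.74, Cd3e 1.15, Gzmb 3.22). Of the macrophage and dendritic cell markers, 1 of 5 was upregulated (median LFC -0.22), of the B and plasma cell markers 3 of 7 were (median LFC 1.37), and of the markers of all leukocytes 0 of 3 were (median LFC 0.26). Their part in the Psmb8 difference was not tested.

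Psmb9 encodes β1i and lies at chr17:34181988-34187764 (mm10), head to head with the peptide transporter gene Tap1, with which it shares 212 exonic bases. Its levels were 6.63, 5.69, 6.56, 6.06 and 5.38 RPKM in germ-free mice and 5.85, 8.89, 6.64, 6.59, 6.78 and 7.36 RPKM in humanized mice, so the groups overlapped. The LFC was 0.21 ± 0.10 (SE) with an FDR of 0.177 (edgeR exact test). Psmb10 encodes β2i and lies at chr8:105935728-105938392. Its levels were 65.5, 69.9, 75.5, 71.6 and 67.4 RPKM in germ-free mice and 87.7, 68.0, 62.1, 81.7, 89.9 and 86.3 RPKM in humanized mice. Humanized mice 2 and 3 lay within or below the germ-free range and the other 4 above it, giving an LFC of 0.18 ± 0.10 (SE) and an FDR of 0.205 (edgeR exact test). Both LFCs turned negative when libraries were scaled to epithelial markers, at -0.02 for Psmb9 and -0.07 for Psmb10, and neither passed the test there.

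Of the standard catalytic partners, Psmb7 and Psmb5 were upregulated with TMM scaling and Psmb6 did not pass the test. Psmb7, which encodes β2, had 47.9, 55.9, 51.2, 53.8 and 54.4 RPKM in germ-free mice and 61.5 to 74.4 RPKM (median 67.5) in humanized mice. The groups did not overlap, and the LFC was 0.36 ± 0.06 (SE, FDR 3.76e-05, edgeR exact test). Psmb7 missed the threshold with total counts (LFC 0.17, FDR 0.0579) and with epithelial scaling (LFC 0.13, FDR 0.326). Psmb7 shares 405 exonic bases with the opposite-strand gene Nek6, whose LFC was 0.11 (FDR 0.318). Psmb5, which encodes β5, had 54.5, 60.7, 64.6, 58.3 and 62.6 RPKM in germ-free and 64.9 to 82.6 RPKM (median 72.4) in humanized mice. Its LFC of 0.27 ± 0.07 (SE) passed the exact test (FDR 0.00602) but not the quasi-likelihood test (FDR 0.0124). Without germ-free mouse 1, 2, 4 or 5 or humanized mouse 1, 5 or 6 its FDR was between 0.0104 and 0.0325, and its LFC was 0.09 with total counts (FDR 0.404) and 0.04 with epithelial scaling (FDR 0.794). The lowest humanized mouse was barely above the highest germ-free mouse.

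The estimate for Psmb6, which encodes β1 and lies at chr11:70525367-70527858 (mm10), depended on a single library. Germ-free mouse 3 had 89.1 RPKM (9758 counts), whereas the other germ-free mice had 28.0 to 31.9 RPKM (3129 to 3837 counts) and the humanized mice 31.2 to 38.2 RPKM. With all mice the LFC was -0.27 ± 0.27 (SE, FDR 0.516), and without germ-free mouse 3 it was 0.22 (FDR 0.0645, edgeR exact test). Of 10409 genes with a mean of at least 10 CPM, Psmb6 ranked 1st for the excess of germ-free mouse 3 over every other mouse, and 4th for its excess over the other germ-free mice. The neighbouring genes Med11, Mink1 and Slc25a11 had counts in that mouse at 0.919, 0.963 and 0.971 times the median of the other germ-free mice, against 2.90 for Psmb6. The Psmb6 pseudogenes Psmb6-ps and Psmb6-ps2 had at most 5 counts in any mouse.

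**Figure D3:**
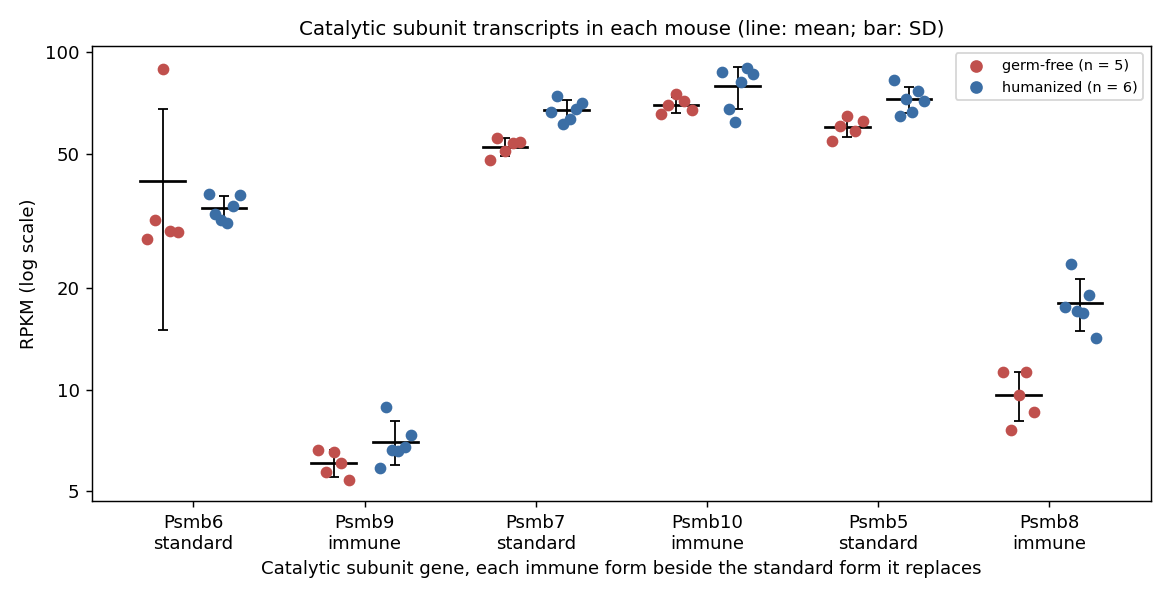
RPKM on a log axis of the 3 standard catalytic subunit genes and the immune subunit that replaces each, with a point for each of the 11 mice, a line at the mean and a bar for the SD. The 2 groups separate for Psmb8, Psmb7 and Psmb5, overlap for Psmb9 and Psmb10, and the Psmb6 point of germ-free mouse 3 sits apart at 89.1 RPKM.

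Ratios within a library do not depend on how libraries are scaled, and the ratio of Psmb8 to Psmb5 was higher in humanized mice. It was 0.207, 0.125, 0.149, 0.193 and 0.137 in germ-free mice and 0.214, 0.364, 0.235, 0.253, 0.247 and 0.198 in humanized mice. Only humanized mouse 6 lay below the highest germ-free mouse. The mean log2 difference was 0.63, a 1.55-fold higher ratio (exact two-sided permutation p = 0.00866, or 0.026 adjusted over the 3 pairs), and it was 0.61 without germ-free mouse 3 (exact permutation p = 0.019). For Psmb9 to Psmb6 the log2 difference was 0.31 (exact permutation p = 0.42, adjusted 0.42), and it was 0.02 without germ-free mouse 3 (exact permutation p = 0.924). For Psmb10 to Psmb7 it was -0.19 (exact permutation p = 0.117, adjusted 0.175), with ratios of 1.24 to 1.48 in germ-free and 0.913 to 1.32 in humanized mice. The smallest two-sided p this design allows is 0.00433, from 462 splits.

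Ratios between immune subunits were added after the values had been seen, so they are a description with no test. Psmb8 relative to Psmb9 was 1.34 to 1.86 in germ-free and 1.93 to 3.02 in humanized mice, with no overlap. The log2 difference was 0.70, or 1.62-fold. The values of ratios between genes depend on the gene lengths used, whereas log2 differences between groups do not. On the lengths of the principal GENCODE transcripts, the germ-free means were 16.3 RPKM for Psmb8 and 16.4 RPKM for Psmb9. Psmb8 relative to Psmb10 differed by 0.73 on the log2 scale, with overlapping values.

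**Figure D4:**
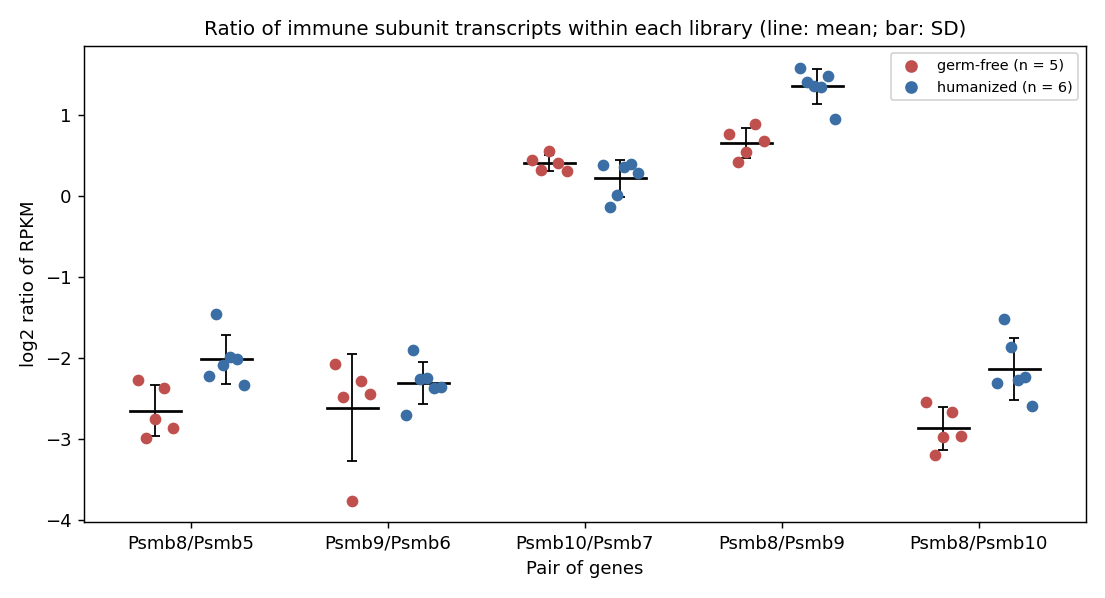
Log2 ratio of RPKM within each library for the 3 immune-to-standard pairs and for Psmb8 against the other 2 immune subunits, with a point for each mouse, a line at the mean and a bar for the SD. Humanized means lie higher for the 3 ratios with Psmb8 on top, by 0.63, 0.70 and 0.73, and the groups are apart for Psmb8/Psmb9 and overlap for the other 4 ratios.

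In the core particle, 11 of the 14 standard subunit genes were upregulated, against 9.2% of all genes, with a median LFC of 0.32. With total counts 1 of the 14 was upregulated (median LFC 0.13), against 3.89% of all genes, and with epithelial scaling 0 were (median LFC 0.08), against 2.84%. The alpha ring, whose subunits gate the entry to the barrel, had 6 of 7 genes upregulated, and Psma4 (LFC 0.23, FDR 0.0147) missed the threshold. Psma1 had 30.7, 35.2, 32.2, 34.5 and 36.3 RPKM in germ-free mice and 39.4 to 54.0 RPKM (median 45.3) in humanized mice. Its LFC was 0.45 ± 0.08 (SE, FDR 1.067e-05, edgeR exact test), and the groups did not overlap. Psma6 had 57.8, 64.8, 58.4, 64.6 and 66.1 RPKM in germ-free and 70.5 to 94.2 RPKM (median 82.9) in humanized mice, also apart, with an LFC of 0.40 ± 0.08 (SE, FDR 0.000123). The other upregulated alpha genes, Psma2, Psma3, Psma5 and Psma7, had LFCs of 0.28 to 0.33.

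Among the beta subunits without catalytic activity, Psmb1, Psmb2 and Psmb4 were upregulated and Psmb3 (LFC 0.26, FDR 0.0111) missed the threshold. Psmb1, which encodes β6, had 122.0, 135.0, 122.2, 126.5 and 130.5 RPKM in germ-free mice and 151.6 to 193.8 RPKM (median 177.9) in humanized mice. The groups did not overlap, and the LFC was 0.46 ± 0.06 (SE, FDR 1.176e-07, edgeR exact test). Psmb2 and Psmb4 had LFCs of 0.32 and 0.28. Core subunits are built in equal numbers into the barrel, yet their levels in germ-free mice ranged from 19.1 RPKM for Psma3 to 127 RPKM for Psmb1. This range was on the gene lengths in the deposited table, which were 0.324 to 3.36 times the length of the principal GENCODE transcript. On the latter lengths the range was 3.79-fold instead of 6.67-fold, from 25.7 RPKM for Psma2 to 97.6 RPKM for Psmb6, whose mean was raised by germ-free mouse 3. Levels between genes thus depend on the length used, whereas LFCs do not.

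In the regulatory particle, which binds, unfolds and feeds in ubiquitin-tagged proteins, 10 of the 17 subunit genes were upregulated, against 9.2% of all genes, with a median LFC of 0.26. The quasi-likelihood test called 6 of the 17, against 7.05% of all genes. With total counts or epithelial scaling 0 were upregulated (median LFC 0.08 and 0.03), against 3.89% and 2.84% of all genes. The ATPases that form the motor of its base had 2 of 6 upregulated, and both were near the threshold. Psmc5 had 31.0, 36.2, 36.9, 35.4 and 35.8 RPKM in germ-free and 38.5 to 46.9 RPKM (median 41.7) in humanized mice, with no overlap (LFC 0.26 ± 0.07 SE, FDR 0.00565). Psmc2 had 9.64, 11.4, 10.9, 12.1 and 11.4 RPKM in germ-free and 11.8 to 14.6 RPKM (median 13.7) in humanized mice, with overlap (LFC 0.27 ± 0.07 SE, FDR 0.00844). Both missed the threshold by the quasi-likelihood test (FDR 0.0108 and 0.0162). Psmc5 also missed it without any single germ-free mouse or humanized mouse 1, 2 or 6 (FDR 0.0111 to 0.0305). Psmc2 did so without germ-free mouse 1, 2, 3 or 5 or humanized mouse 1, 2, 4 or 6 (FDR 0.0151 to 0.0419). Psmc1 was close to the median of all genes, with an LFC of 0.06 ± 0.05 (SE, FDR 0.598), and Psmc3, Psmc4 and Psmc6 had LFCs of 0.19 to 0.24.

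Of the non-ATPase subunits, 8 of 11 were upregulated, against 9.2% of all genes. The ubiquitin receptor gene Psmd4 and the lid subunit gene Psmd13 led with LFCs of 0.34 each (FDR 9.051e-05 and 4.492e-05, edgeR exact test). Psmd14, which encodes the enzyme that removes ubiquitin from substrates, had an LFC of 0.30 (FDR 0.00932), with 15.1 to 18.6 RPKM in germ-free and 17.3 to 24.6 RPKM in humanized mice. Its FDR was 0.0189 by the quasi-likelihood test, 0.0103 with RLE factors and 0.0289 with upper-quartile factors. Psmd2, which like Psmd1 encodes a scaffold of the base, had an LFC of 0.29 (FDR 0.00257), whereas Psmd1 had 0.19 (FDR 0.0298). Psmd3 had the smallest LFC of the upregulated genes at 0.24 ± 0.06 (SE, FDR 0.0068), with 18.1, 19.9, 19.6, 18.4 and 19.4 RPKM in germ-free and 21.1 to 25.2 RPKM (median 21.8) in humanized mice. Psmd3 missed the threshold by the quasi-likelihood test (FDR 0.0105) and without any single germ-free mouse or humanized mouse 1 or 3 (FDR 0.0105 to 0.0324). Psmd7, Psmd8 and Psmd11 were upregulated as well (LFC 0.28 to 0.31), and Psmd6 and Psmd12 were not called (LFC 0.14 and 0.24).

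Of the alternative activators, both subunit genes of the PA28 alpha-beta ring were upregulated with TMM scaling. PA28 alpha-beta, encoded by Psme1 and Psme2, is inducible by interferon gamma and opens the core without ubiquitin. Psme2 had 49.0, 54.3, 48.6, 55.7 and 55.3 RPKM in germ-free mice and 75.5, 78.2, 63.0, 69.0, 80.7 and 77.6 RPKM in humanized mice. The groups were apart, and its LFC of 0.49 ± 0.07 (SE, FDR 2.291e-07, edgeR exact test) was second only to that of Psmb8. Its LFC was 0.30 with total counts (FDR 0.000396), and with epithelial scaling it was 0.25 and missed the threshold (FDR 0.0197). Psme2b, a copy of Psme2 on another chromosome with 362 to 566 counts per library, had an LFC of 0.36 (FDR 0.068), and reads shared by the pair could have been split or dropped in counting. Psme1 had 43.6, 43.1, 41.0, 45.4 and 42.8 RPKM in germ-free mice and 53.5, 54.7, 44.1, 54.0, 53.5 and 53.7 RPKM in humanized mice. Humanized mouse 3 alone overlapped the germ-free range, and the LFC was 0.27 ± 0.06 (SE, FDR 0.00209). Without germ-free mouse 2, 3 or 5 the FDR was between 0.0106 and 0.0155. Psme1 also missed the threshold with total counts (LFC 0.09, FDR 0.394) and with epithelial scaling (LFC 0.03, FDR 0.836). Psme3, which encodes the nuclear PA28 gamma, had 22.5, 27.1, 26.4, 27.5 and 28.2 RPKM in germ-free and 27.3 to 36.2 RPKM (median 31.0) in humanized mice and did not pass the threshold (LFC 0.23 ± 0.08 SE, FDR 0.0346). Psme4, which encodes PA200, had 18.5, 19.1, 15.6, 17.1 and 17.3 RPKM in germ-free and 17.9 to 22.1 RPKM (median 18.4) in humanized mice, with overlap (LFC 0.14 ± 0.07 SE, FDR 0.224).

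Of the genes that assemble or restrain the proteasome, Psmd10 was upregulated. None of the 4 core chaperone genes Psmg1 to Psmg4 passed the test (LFC 0.03 to 0.20, unadjusted p above 0.05), and the inhibitor gene Psmf1 had an LFC of -0.02 ± 0.07 (SE). Among the assembly factors of the regulatory particle, Psmd10 was upregulated (LFC 0.33, FDR 0.00262), with 11.9 to 12.7 RPKM in germ-free and 13.8 to 17.6 RPKM in humanized mice, while Psmd5 (LFC 0.20, FDR 0.0476) and Psmd9 (LFC -0.01, FDR 0.958) did not pass. Whether these classes differed from the subunit genes was not tested. Psmd9 shares 1849 exonic bases, 40.5% of its length, with the opposite-strand gene Gm26745, which had at most 29 counts in any mouse.

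The number of upregulated genes depended on how libraries were scaled. With total counts in place of TMM factors, Psmb1, Psmb8 and Psme2 were upregulated, and with epithelial scaling Psmb8 was. The median LFC over all tested genes was -0.18 and -0.23 under these scalings, and the median of the proteasome genes was 0.08 and 0.03. A scaling factor shifts the LFCs of all genes by nearly the same amount, so the median of the proteasome genes lay 0.26 above that of all genes under each of the 5 scalings by construction. Psmb8 kept an LFC of 0.66 with epithelial scaling (FDR 0.0034, or 0.0172 when the quasi-likelihood test was used as well), whereas Psme2 had 0.25 (FDR 0.0197). The estimated direction of 12 genes changed among the scalings, namely Psmb9, Psmb10, Psmc1, Psmc3, Psmd1, Psmd5, Psmd6, Psme4 and the 4 Psmg genes. No gene was downregulated under any of them.

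**Figure D5:**
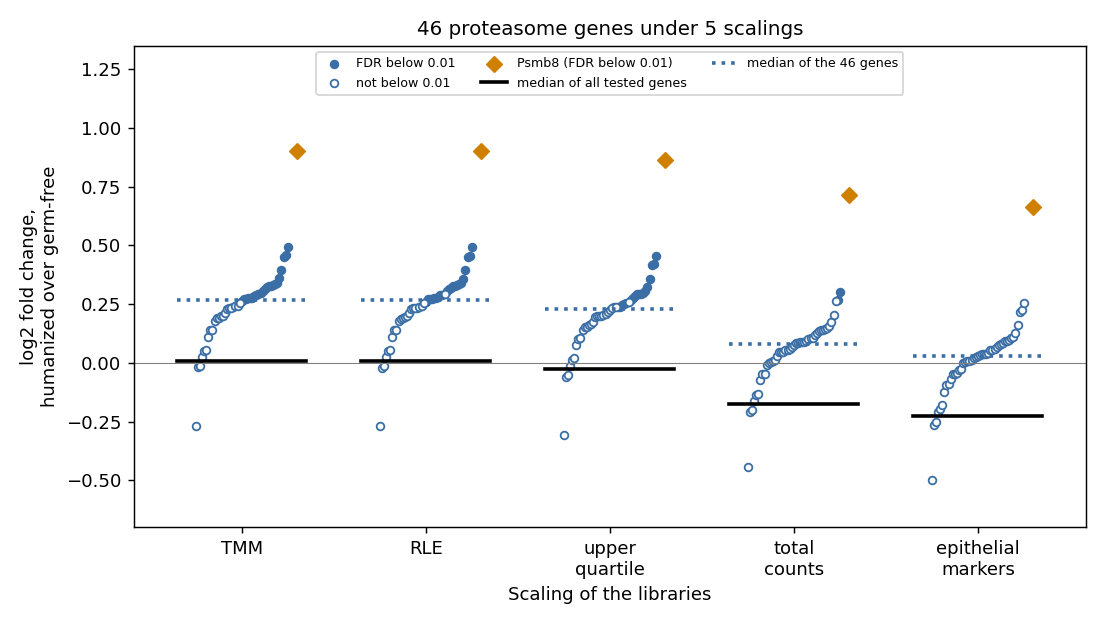
Log2 fold changes (vertical axis) of the 46 genes under 5 scalings of the libraries, with filled points for FDR below 0.01, a diamond for Psmb8, a black line at the median of all tested genes and a dotted line at the median of the proteasome genes. All points move down together from TMM to total counts and epithelial markers, the dotted line stays 0.26 above the black line, and Psmb8 stays on top.

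Genes that work with the proteasome outside the Psm families had a median LFC of 0.21. Of 16 such genes tested, 6 were upregulated, against 9.2% of all genes, and Ubqln2, a shuttle for ubiquitin-tagged proteins, was downregulated (LFC -0.29, FDR 0.00181). Pomp, the maturation protein that assembles the core, rose from 82.5 ± 4.55 to 104.0 ± 7.96 RPKM (SD, n = 5 and 6, LFC 0.33, FDR 0.000182, edgeR exact test). Shfm1, a small lid subunit, had an LFC of 0.35 (FDR 0.000409), and Zfand5, Akirin2, Txnl1 and Vcp had LFCs of 0.23 to 0.33. Akirin2 carries proteasomes into the nucleus and Vcp extracts ubiquitin-tagged proteins for them. Adrm1, a ubiquitin receptor of the regulatory particle, had an LFC of -0.0036 (FDR 0.988). The quasi-likelihood test called 4 of the 6, against 7.05% of all genes, leaving out Akirin2 (FDR 0.0149) and Txnl1 (FDR 0.0106). With total counts or epithelial scaling, 0 of these genes were upregulated, against 3.89% and 2.84% of all genes, and 1 was downregulated, against 18.2% and 16%.

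Transcripts of 4 genes of the pathway known to drive proteasome transcription did not pass the test, and the activity of their products was not measured. Nfe2l1, which restores proteasome genes when proteolysis is blocked, had an LFC of 0.05 (FDR 0.668), and Nfe2l2, Ddi2 and Ngly1 had LFCs of 0.04 to 0.16, with 0 of the 4 past the threshold and 0 of the 4 at an unadjusted p below 0.05. Of 11 interferon and class I regulators tested, 2 were upregulated, against 9.2% of all genes. Irf1, an interferon-induced activator of Psmb8 and Psmb9, rose from 28.5 ± 1.74 to 46.1 ± 5.89 RPKM (SD, n = 5 and 6, LFC 0.70, FDR 9.508e-11), and Irf8 had an LFC of 0.25 (FDR 0.00198). Nlrc5 (LFC 0.71, FDR 0.262) did not pass, and Ifng had too few counts to test. Of 10 genes for MHC class I molecules, their folding and their peptide loading, 5 were upregulated, against 9.2% of all genes. These were Canx (LFC 0.66), B2m (0.49), H2-D1 (0.45), Calr (0.42) and H2-K1 (0.41). Tap1 (LFC 0.30, FDR 0.129), Tap2 (LFC 0.25, FDR 0.0118), Tapbp, Erap1 and Pdia3 did not pass. The quasi-likelihood test called 4 of these 10 genes, against 7.05% of all genes, and 3 were upregulated with total counts, against 3.89%. With epithelial scaling, 2.84% of all genes were upregulated and 16% downregulated. There, 1 of the regulators was upregulated and 3 downregulated, and 1 of the 10 class I genes was upregulated and 0 downregulated.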

How the data were processed

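RNA from the colon of 5 germ-free and 6 humanized male mice was sequenced as 101 bp paired-end reads (TruSeq RNA v2, which does not mark strand). The deposited values are whole-number read counts per gene that the authors made with bcl2fastq 2.17.1.14, TopHat2 2.1.0, Bowtie2 2.2.3 and featureCounts (Subread 1.4.6-p5) on build mm10. From these counts, genes were filtered (filterByExpr, minimum count 10), scaled by TMM factors and compared with the edgeR 4.0.16 exact test, with Benjamini-Hochberg adjustment over all tested genes and a threshold of FDR below 0.01. The study's methods name the same test and threshold with another edgeR version. Standard errors came from the quasi-likelihood fit, and RPKM used the deposited gene lengths. Within-library ratios were compared by an exact permutation test in SciPy 1.17.1. DESeq2 1.42.0, other scalings and filters, and leaving out each mouse were tried as alternatives. The edgeR code was tested on simulated data.

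Genes described in full were the immune subunits, their partners, the activators, and the 5 highest and 5 lowest LFCs past the threshold. Members and lists were chosen with earlier results of these data known. Libraries within a group differed beyond sampling noise. Counts of 13 proteasome genes can include reads of an overlapping gene in GENCODE vM21.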

Additional observations from a re-analysis of the deposited data

Results flagged for a closer look

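Of 102 sets of values tested for a sample far from the rest of its group, 8 had one, and chance flags about 1 in 20. Psmb6 in germ-free mouse 3 was 89.1 RPKM, with 31.9 RPKM the nearest value, and the log2 ratio of Psmb9 to Psmb6 in the same mouse was -3.76, with -2.49 the nearest. Humanized mouse 3 was lowest for Psmc1 (47.9 RPKM, nearest 54.1) and for Psme1 (44.1 RPKM, nearest 53.5). Humanized mouse 1 was highest for Psmc4 (30.8 RPKM, nearest 27.0). Germ-free mouse 1 was lowest for Psmc5 (31.0 RPKM, nearest 35.4), and germ-free mouse 2 was highest for Psmd9 (3.89 RPKM, nearest 3.61). The log2 ratio of Psmb8 to Psmb9 in humanized mouse 6 was 0.95, below the nearest value of 1.36. Part of each library's counts fell on Yam1 and AY036118, which took 4.62% to 12.2% together and 11.1% in germ-free mouse 3, and whether this bears on the Psmb6 value was not tested.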

How the results depend on the processing

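The main count of 25 upregulated proteasome genes (with the share of all tested genes upregulated in brackets, here 9.2%) was 27 with DESeq2 (11%), 24 with RLE factors (9%), 20 with upper-quartile factors (7.87%), the quasi-likelihood test (7.05%) or no filter (5.16%), 21 with at least 10 counts in every mouse (9.02%) and 34 at FDR below 0.05 (14%). It was 3 with total counts (3.89%), 1 with epithelial scaling (2.84%), 0 with epithelial scaling in the quasi-likelihood test (2.12%, added after the data were seen; Psmb8 LFC 0.66, FDR 0.0172), and 1 when LFCs also had to exceed 0.58 in size (3.72%). Dropping single mice gave 14 to 26, with 14 without germ-free mouse 1 (6.83%) and 14 without germ-free mouse 3 (6.69%). The count of downregulated genes was 0 throughout. With the replicate number as a block the count was 3 (2.55%), and the log2 difference of Psmb8 to Psmb5 over same-numbered pairs was 0.70 (exact p = 0.0625, the smallest 5 pairs allow). Correlations between same-numbered mice were -0.13 to 0.09. The labels do not say what the number stands for, and these values cannot tell whether same-numbered mice shared a batch. Leaving out each mouse gave log2 ratio differences of 0.52 to 0.73 for Psmb8 to Psmb5, 0.02 to 0.44 for Psmb9 to Psmb6 and -0.23 to -0.12 for Psmb10 to Psmb7. Of the genes described in full, LFCs turned negative with total counts for Psmb10 (-0.0111) and Psme4 (-0.0491), and with epithelial scaling, under either test, for Psmb9 (-0.0246), Psmb10 (-0.0709, or -0.071 by quasi-likelihood) and Psme4 (-0.0961). That of Psmb6 ranged from -0.38 to 0.22 when single mice were left out and was positive only without germ-free mouse 3. Total counts and epithelial scaling shift the LFCs of all genes by construction, and the causes of the other changes were not tested. Differences of the size seen here, near 1.2-fold, rest on 5 and 6 mice, and nothing was measured at the protein level.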
